A study of Homo sapiens with 15 samples.

Results

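The receptor tyrosine kinases that are known to carry growth signals past an inhibited epidermal growth factor receptor (EGFR) were examined as transcripts in osimertinib-resistant lung adenocarcinoma cells. They were MET, AXL, TYRO3, IGF1R, FGFR1, FGFR2, FGFR3, PDGFRA, PDGFRB, and KIT, a list taken by gene symbol, and all 10 were among the 19612 symbols of the table. H1975, a line of human lung adenocarcinoma cells, has an EGFR with T790M and L858R. H1975–OR cells carry the same EGFR status and were obtained from H1975 by long culture with 500 nM osimertinib, an inhibitor of mutant EGFR, in which they were also kept. They are 1 resistant subline of 1 parental line, and whether they are a clone is not given in the sources used here. The 5 groups had 3 libraries each. They were H1975 with vehicle (Samples 1a, 1b, and 1c) and H1975–OR with vehicle (2a, 2b, and 2c), with 100 nM 1,25(OH)2D3, which is the active vitamin D hormone (3a, 3b, and 3c), with 500 nM osimertinib (4a, 4b, and 4c), or with both agents at these doses (5a, 5b, and 5c). The study's methods describe 96 h of treatment before RNA isolation, with agents renewed at 48 and 92 h. They name separate passages as replicates for the vehicle and 1,25(OH)2D3 libraries and biological replicates for in vitro experiments in general, and do not say what libraries of the same letter share.

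Receptor tyrosine kinases span the cell membrane, bind a growth factor outside the cell, pair up, and phosphorylate one another inside it, which recruits adaptor proteins and turns on the RAS–MAPK and PI3K–AKT pathways. Since these pathways lie downstream of EGFR as well, another active receptor can sustain them while EGFR is inhibited, which is called bypass signaling. MET binds hepatocyte growth factor, AXL and TYRO3 bind GAS6 or protein S, IGF1R binds insulin-like growth factors, FGFR1 to FGFR3 bind fibroblast growth factors, PDGFRA and PDGFRB bind platelet-derived growth factors, and KIT binds stem cell factor. A transcript level says nothing of the amount or phosphorylation of the receptor protein. In bulk RNA, fewer cells that express a gene and less of its RNA per cell cannot be told apart.

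The estimated counts summed to between 4378030 and 6140120 per library (median 4974785). Levels are given as CPM (counts scaled to a common library total by edgeR's TMM method). The limit that a count of 0 allows, 3 counts, amounted to 0.489 to 0.685 CPM, for counting error only. This limit was scaled by the library total alone, without the TMM factor. Sample 3a correlated less with its group (mean r = 0.91 across genes) than the other 14 libraries did with theirs (0.94 to 0.96). It was left out of the fits here, as it was by the authors. Of the 10 receptors, 8 stood above all vehicle-treated H1975–OR libraries in Sample 3a, against 33.7% of the 12513 genes tested. The lung epithelial or carcinoma markers (8 genes) summed to 4496 to 5562 CPM in H1975 and to 3596 to 3935 CPM in vehicle-treated H1975–OR, and 6 of the 8 had lower means there. EPCAM stood at 152 and 11.6 CPM, KRT19 at 1144 and 340 CPM, and KRT7 at 1460 and 526 CPM, while KRT18 stood at 1899 and 2445 CPM, NKX2-1 at 44.8 and 56.3 CPM, and KRT8 at 465 and 440 CPM. The leukocyte list (4 genes) summed to 24.4 to 39.9 CPM in H1975 and 13.03 to 17.4 CPM in vehicle-treated H1975–OR, mostly CD68 (33.0 and 14.4 CPM), with CD3E at 0. Of the mast cell list (3 genes), TPSAB1 was also at 0 in the 14 libraries. HDC was at 0 in H1975 and in vehicle-treated H1975–OR, and CPA3 stood at 0 and 0.959 CPM. The endothelial list (4 genes) summed to 6.41 to 9.16 CPM in H1975 and 6.36 to 8.18 CPM in vehicle-treated H1975–OR. In it PECAM1 stood at 4.14 and 1.27 CPM and CDH5 at 3.48 and 5.74 CPM.

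MET was the most abundant of these transcripts in H1975 cells and stood beside AXL in H1975–OR cells. Levels between genes were compared as CPM per kb of the longest annotated transcript. In H1975, MET stood at 118 ± 21.8 CPM per kb (SD, n = 3) and AXL, a receptor often raised in mesenchymal cells, at 24.0 ± 8.04. FGFR1 (4.00 ± 0.53), IGF1R (3.09 ± 1.61), and TYRO3 (2.72 ± 0.329) followed, and each overlapped the next over its libraries. FGFR3 lay at 1.94 ± 0.414, below TYRO3 in every library. PDGFRB (0.586 ± 0.314), KIT (0.565 ± 0.401), FGFR2 (0.114 ± 0.0865), and PDGFRA (0.0505 ± 0.0392) closed the order and overlapped their neighbors.

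In vehicle-treated H1975–OR cells AXL (32.9 ± 3.62 CPM per kb, n = 3) and MET (31.8 ± 16.5) overlapped, and both lay above FGFR1 (6.88 ± 0.776). PDGFRB moved from the seventh to the fourth place, at 3.69 ± 1.29 CPM per kb, and overlapped FGFR3 (3.62 ± 0.762) but not FGFR1. IGF1R (2.12 ± 0.811) and TYRO3 (1.48 ± 0.172) overlapped, as did FGFR2 (0.474 ± 0.354) and KIT (0.282 ± 0.189). PDGFRA had the lowest mean on this scale in each of the 5 groups, with 0 to 4 counts in each of the 14 libraries and 6 in Sample 3a, and it failed the filter on low counts, so 9 of the 10 receptors were tested. MET and AXL were the highest pair also with osimertinib (33.8 ± 19.98 and 33.8 ± 1.35 CPM per kb) and with both agents (38.9 ± 22.4 and 33.5 ± 2.42), overlapping each time. With 1,25(OH)2D3 (Samples 3b and 3c) AXL, at 33.0 ± 2.87 CPM per kb (n = 2), lay above MET, at 27.4 ± 2.38. When levels were divided by the median transcript length instead, IGF1R came to the second place in H1975 (66.0 CPM per kb) and with both agents (76.9), between MET and AXL, and to the first place with 1,25(OH)2D3 (64.6), above AXL (60.9) and MET (58.2). PDGFRA was then lowest in 2 of the 5 groups. The order thus depends on the length that is used, its top place included.

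**Figure D1:**
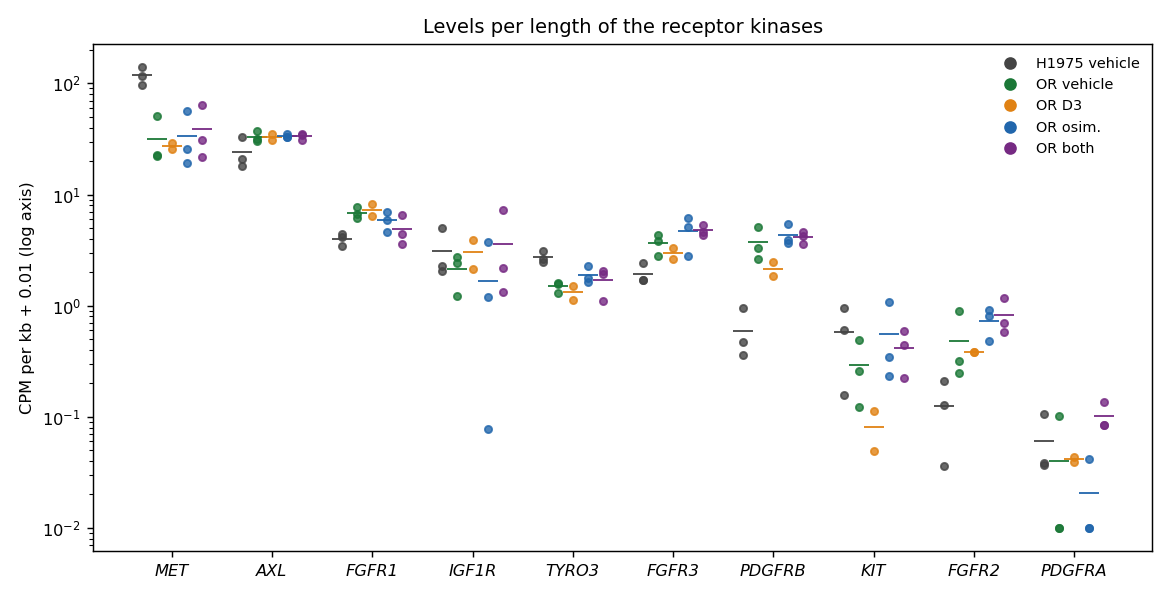
Levels of the 10 receptor kinases per transcript length. The y axis gives CPM per kb of the longest annotated transcript plus 0.01 on a log axis, each point is 1 library, each bar is the mean of its group, and Sample 3a is not shown. MET stands alone at the top in H1975 and beside AXL in the 4 H1975–OR groups.

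The comparison of vehicle-treated H1975–OR with H1975 asked how the resistant cells differ from their parental line. The vehicle-treated H1975–OR libraries had no osimertinib during the 96 h of treatment, though these cells are kept in it. Cell line and removal of the drug thus differ together here and cannot be told apart. MET and TYRO3 were lower and FGFR1 and PDGFRB were higher in the resistant cells, 4 of the 9 receptors tested, at an adjusted p under 0.05 in edgeR's quasi-likelihood test. Of the 12513 genes tested, 2521 passed, which is 20.1% (9.89% higher, 10.3% lower). The median log2 fold change was 0.47 over the 9 receptors and 0.01 over all genes. By library, 4 receptors did not overlap and were higher (FGFR1, FGFR2, FGFR3, PDGFRB; 19% of all genes) and 2 were lower (MET, TYRO3; 20.3% of all genes).

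MET, located at chr7:116672196-116798377 on the plus strand (GRCh38, GENCODE release 44), had 666, 798, and 966 CPM in Samples 1a, 1b, and 1c and 350.1, 155, and 151 CPM in Samples 2a, 2b, and 2c. The resistant libraries all lay below the parental ones, and Sample 2a was the nearest. The means were 810 ± 150 and 219 ± 114 CPM (SD, n = 3 each), with a log2 fold change of -1.87 (SE 0.321; 95% interval -2.60 to -1.14; adjusted p = 0.00553, edgeR). That is a 3.66-fold lower level, and the call held in all 14 alternative analyses. No other annotated gene overlaps MET.

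PDGFRB, at chr5:150113839-150155872 on the minus strand, had 5.37, 2.00, and 2.65 CPM in H1975 and 29.3, 18.8, and 15.04 CPM in vehicle-treated H1975–OR. The groups did not overlap, and even the highest H1975 library was below the lowest H1975–OR library by more than the whole range within H1975. The means were 3.34 ± 1.79 and 21.0 ± 7.37 CPM (n = 3 each), and the log2 fold change was 2.65 (SE 0.435; 95% interval 1.66 to 3.64; adjusted p = 0.00468, edgeR), or 6.29-fold. These values rest on 11 to 31 counts per H1975 library and 78 to 143 per H1975–OR library. The call held in all 14 alternatives. PDGFRB is a receptor of pericytes and fibroblasts, and the fibroblast markers (5 genes) summed to 11.2 to 14.6 CPM in H1975 and 26.4 to 90.8 CPM in H1975–OR. COL1A2 made up most of the sum in H1975 and COL3A1 in H1975–OR, at means of 12.1 and 1.02 CPM for COL1A2 and 0.173 and 53.9 CPM for COL3A1. LUM stood at 0 and 2.39 CPM, and DCN and THY1 were below 1 CPM in both groups. Their part in the PDGFRB result was not tested.

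The promoters of MET and PDGFRB are shown because these receptors passed the test in both comparisons with H1975, in opposite directions. Each sequence runs 5′ to 3′ from 250 bases before to 50 bases after a RefSeq start (GRCh38.p14). Capitals mark the GC box (GGGCGG) and the CCAAT box (CCAAT) on either strand, which do not overlap one another here.
MET, chr7:116671946-116672245, plus strand: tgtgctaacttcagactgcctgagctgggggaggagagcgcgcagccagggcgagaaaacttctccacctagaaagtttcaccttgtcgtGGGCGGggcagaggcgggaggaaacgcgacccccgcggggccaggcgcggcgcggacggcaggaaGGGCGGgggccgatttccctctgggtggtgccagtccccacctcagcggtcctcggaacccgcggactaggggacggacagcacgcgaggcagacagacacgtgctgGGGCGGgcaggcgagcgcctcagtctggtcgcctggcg
PDGFRB, chr5:150155796-150156095, minus strand: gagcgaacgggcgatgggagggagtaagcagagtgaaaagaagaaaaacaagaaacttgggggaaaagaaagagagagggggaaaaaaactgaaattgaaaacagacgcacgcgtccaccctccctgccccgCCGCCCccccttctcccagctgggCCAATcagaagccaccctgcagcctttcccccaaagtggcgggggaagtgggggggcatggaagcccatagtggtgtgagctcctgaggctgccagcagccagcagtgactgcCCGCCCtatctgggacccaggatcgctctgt
The MET window held 3 GC boxes, no CCAAT box, 30 CpG dinucleotides, and 69.3% G and C. The PDGFRB window held 2 GC boxes, 1 CCAAT box, 11 CpG dinucleotides, and 59.3% G and C. Of 35116 RefSeq promoter windows of this length, 45.0% held a GC box and 34.6% a CCAAT box, and the median number of CpG dinucleotides was 14. There were 16 windows for 9 of the 10 receptors, and the first listed for MET and for PDGFRB is shown. A match is a description of the letters and says nothing of binding.

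TYRO3, at chr15:41557675-41583589, and AXL, at chr19:41219223-41261766, belong to the same receptor family. TYRO3 was lower in the resistant cells, and AXL did not pass the test. TYRO3 had 24.8, 19.7, and 21.0 CPM in H1975 and 12.9, 10.3, and 12.5 CPM in vehicle-treated H1975–OR, with no overlap. Its log2 fold change was -0.86 (SE 0.229; 95% interval -1.38 to -0.33; adjusted p = 0.0319, edgeR), 1.81-fold lower. This call was lost in 7 of 14 alternatives, among them without Sample 1a (adjusted p = 0.0825), 1b (0.0618), 1c (0.0639), 2b (0.106), or 2c (0.0722) in edgeR. AXL had 156, 99.2, and 84.5 CPM in H1975 and 174, 149, and 142 CPM in H1975–OR. Sample 1a lay within the range of the resistant libraries, and the difference did not pass (log2 fold change 0.47, 95% interval -0.03 to 0.96, adjusted p = 0.168, edgeR). Without Sample 1a it was 0.76 (adjusted p = 0.0151, edgeR). An antisense gene overlaps AXL, and whether strand was used in the counting is not given in the sources used here.

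All 3 FGFR transcripts had higher means in the resistant cells, and FGFR1 alone passed the test. FGFR1 (chromosome 8) had 25.8, 27.5, and 21.2 CPM in H1975 and 38.5, 48.0, and 41.8 CPM in vehicle-treated H1975–OR. The groups did not overlap and differed by a log2 fold change of 0.80 (SE 0.176; 95% interval 0.40 to 1.20; adjusted p = 0.0152, edgeR), or 1.74-fold. Without Sample 2b the adjusted p was 0.0592 (log2 fold change 0.71), and the call held in the other 13 alternatives. Other annotated genes overlap FGFR1, 2 on its strand and 2 on the opposite one, so its counts could hold reads of these.

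FGFR3, at chr4:1793293-1808872, had 10.4, 7.29, and 7.33 CPM in H1975 and 18.4, 12, and 16.4 CPM in H1975–OR. Its libraries did not overlap, and the log2 fold change was 0.91 (95% interval 0.27 to 1.56; adjusted p = 0.0538, edgeR), just outside the threshold. It passed with DESeq2 (adjusted p = 0.0450) and when 10 counts were required in every library (0.0428). FGFR2, at chr10:121478332-121598458, was a low transcript with 1.39, 0.182, and 0.814 CPM in H1975 and 6.14, 1.66, and 2.12 CPM in H1975–OR. The groups were separate in CPM, though H1975 had 1 to 8 counts per library and vehicle-treated H1975–OR 8 to 30. Samples 1a and 2b tied at 8 counts and were separated by the scaling alone. The log2 fold change was 2.03 (95% interval 0.21 to 3.85; adjusted p = 0.109, edgeR).

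IGF1R and KIT did not pass, with wide intervals. IGF1R had 25.1, 27.7, and 60.5 CPM in H1975 and 14.7, 33.5, and 29.7 CPM in vehicle-treated H1975–OR (log2 fold change -0.52, 95% interval -1.49 to 0.45, adjusted p = 0.432, edgeR). Its libraries overlapped, and 5 annotated genes overlap it, 3 of them on the opposite strand. KIT, with 5.20, 3.28, and 0.814 CPM in H1975 and 2.66, 0.621, and 1.35 CPM in H1975–OR, rested on at most 30 counts in any of these libraries (log2 fold change -0.99, 95% interval -2.82 to 0.85, adjusted p = 0.427, edgeR).

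**Figure D2:**
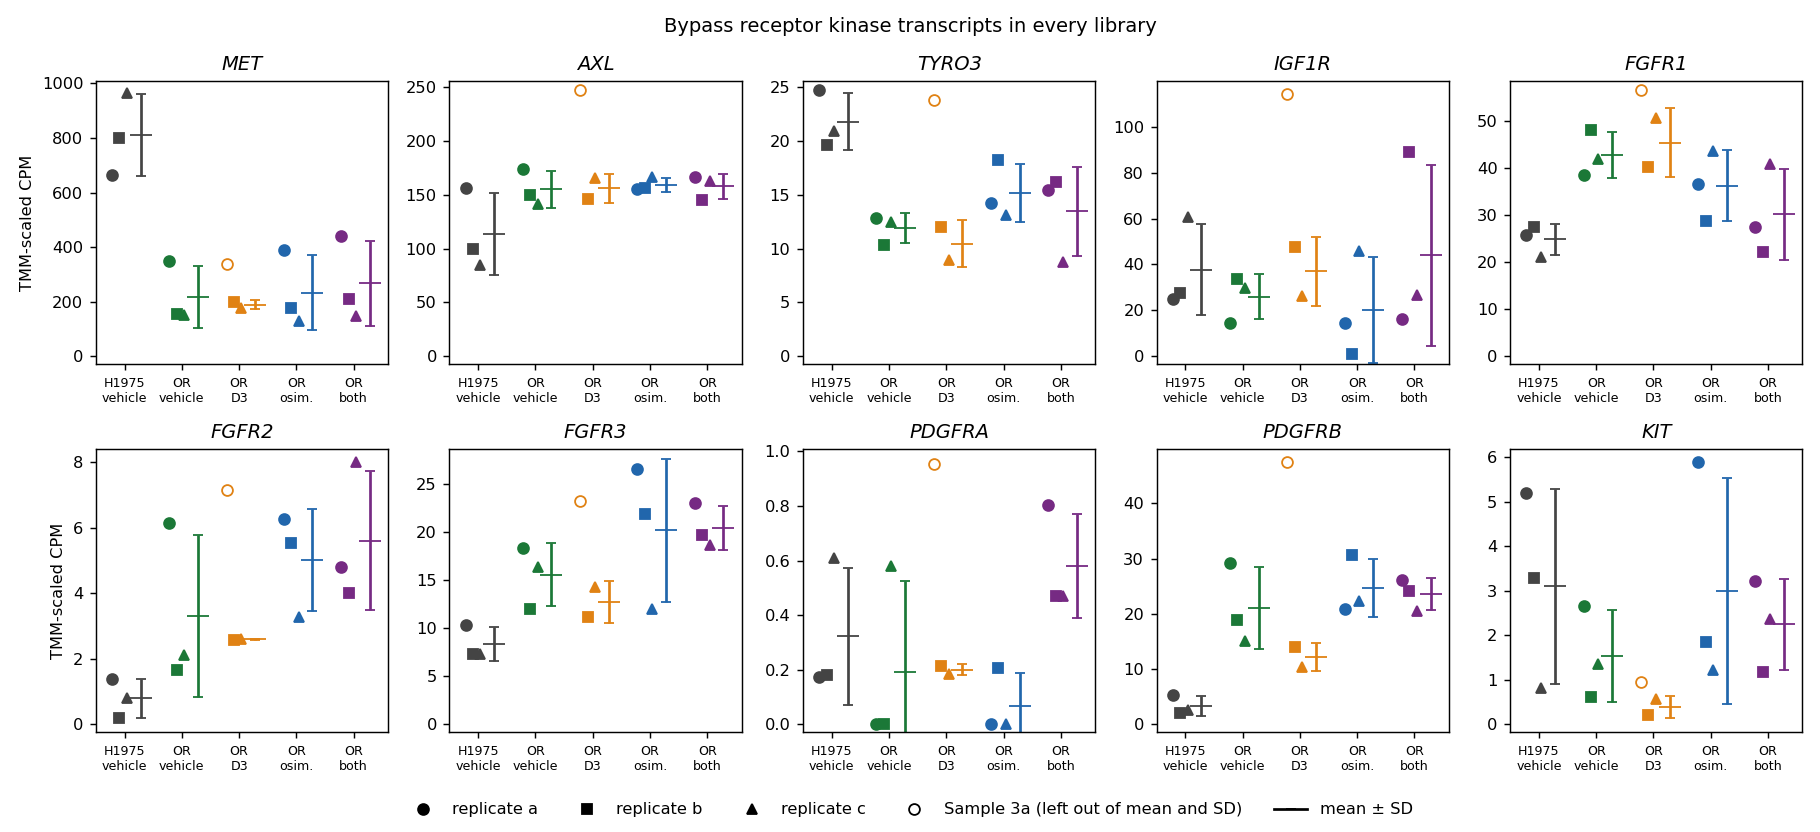
Levels of each receptor kinase in all 15 libraries. Each panel gives TMM-scaled CPM on its own linear axis, symbols mark the replicate letter, bars are the mean ± SD of a group with lower ends cut at the axis, and the open circle is Sample 3a, which is left out of the mean. In H1975–OR, MET is lower and PDGFRB higher than in H1975, in each library.

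H1975–OR cells are maintained in osimertinib, so the osimertinib-treated libraries were also compared with vehicle-treated H1975, in a fit of 14 libraries. PDGFRB, FGFR3, and FGFR2 were higher and MET was lower, 4 of the 9 receptors tested. Of the 12819 genes tested, 2998 passed (23.4%; 11.3% higher, 12% lower). This comparison shares Samples 1a, 1b, and 1c with the one above, so its values stand beside those and are not independent of them. No H1975 library was treated with osimertinib, so cell line and drug differ together here and cannot be told apart.

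PDGFRB had 20.9, 30.7, and 22.3 CPM in Samples 4a, 4b, and 4c, against 2.00 to 5.37 CPM in H1975. The log2 fold change was 2.87 (SE 0.373; 95% interval 2.06 to 3.68; adjusted p = 0.000273, edgeR), 7.30-fold higher. FGFR3 had 26.6, 21.9, and 12.1 CPM, all above the H1975 maximum of 10.4 CPM, with a log2 fold change of 1.27 (SE 0.302; adjusted p = 0.00987, edgeR). Both calls held in all 13 alternatives.

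FGFR2 had 6.28, 5.53, and 3.27 CPM with osimertinib, and the H1975 libraries did not exceed 1.39 CPM. Its log2 fold change was 2.62 (SE 0.687; 95% interval 1.13 to 4.11; adjusted p = 0.0161, edgeR), and it was lost without Sample 1b (adjusted p = 0.0559) or 1c (0.0508) in edgeR. MET had 389, 178, and 131 CPM, below every H1975 library, and a log2 fold change of -1.80 (SE 0.471; 95% interval -2.82 to -0.78; adjusted p = 0.0161, edgeR). That call was lost without Sample 1c (adjusted p = 0.0519), 4b (0.0717), or 4c (0.0643) in edgeR, while the log2 fold change stayed between -2.39 and -1.51 over the alternatives.

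The other 5 receptors did not pass against H1975. AXL had 155, 156, and 167 CPM with osimertinib (log2 fold change 0.49, 95% interval 0.09 to 0.90, adjusted p = 0.0749, edgeR), and it passed in 3 of 13 alternatives, with the lowest adjusted p without Sample 1a (0.80, adjusted p = 0.00239, edgeR). FGFR1 had 36.5, 28.7, and 43.6 CPM, all above the H1975 libraries (log2 fold change 0.55, adjusted p = 0.113, edgeR), and TYRO3 had 14.3, 18.2, and 13.1 CPM, all below them (-0.52, adjusted p = 0.175). Receptors whose libraries did not overlap thus numbered 4 higher (FGFR1, FGFR2, FGFR3, PDGFRB; 19.5% of all genes) and 2 lower (MET, TYRO3; 21.4% of all genes). IGF1R (14.5, 0.819, and 45.8 CPM) and KIT (5.90, 1.84, and 1.23 CPM) varied too much between libraries to be placed.

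**Figure D3:**
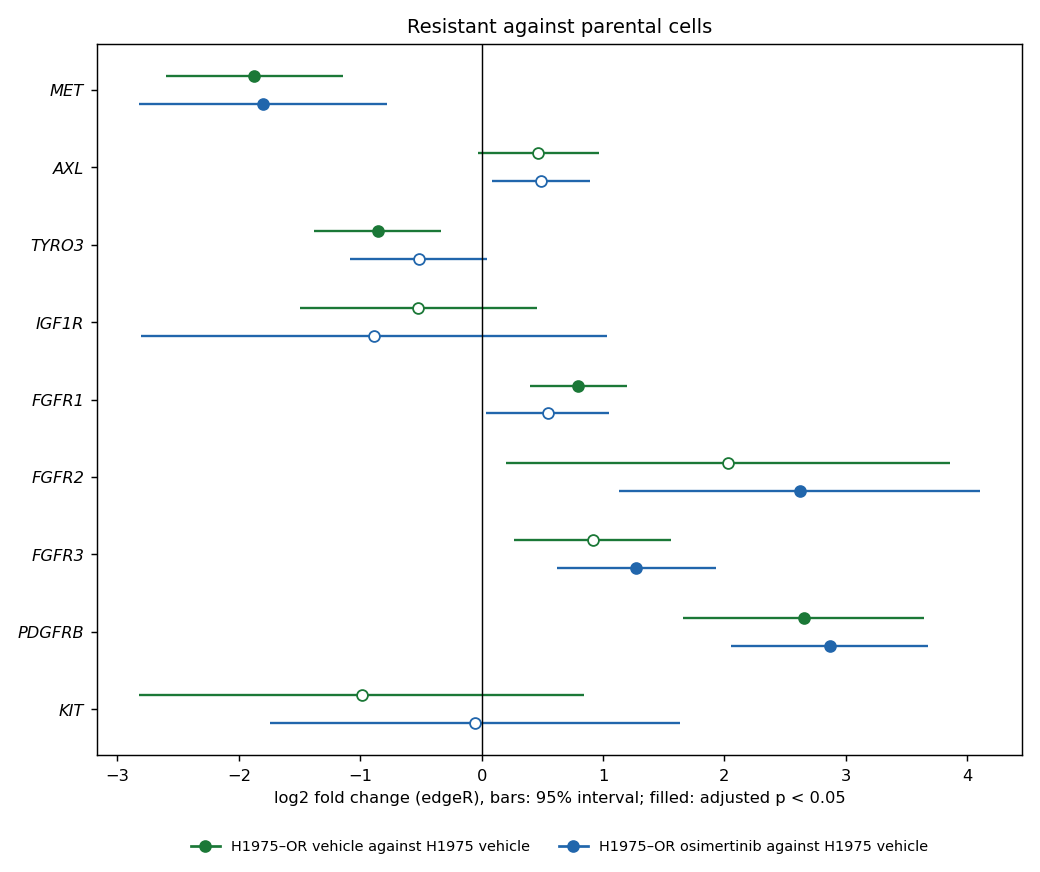
Differences between resistant and parental cells for the 9 receptor kinases tested. The x axis gives the edgeR log2 fold change, bars span the 95% interval, green points are vehicle-treated and blue points osimertinib-treated H1975–OR, and filled points have an adjusted p under 0.05. MET lies at -1.87 and -1.80 and PDGFRB at 2.65 and 2.87, and the comparisons share the H1975 libraries. All H1975 libraries had vehicle, so for the blue points cell line and drug differ together.

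Within H1975–OR cells, the treatments were compared to ask whether 1,25(OH)2D3, osimertinib, or both changed these transcripts. As these cells are maintained in osimertinib, the groups without it had their usual drug removed. None of the 9 receptors tested passed in any of the 5 comparisons with edgeR, none had an unadjusted p under 0.05, and none passed with DESeq2. Few genes passed at all. With 1,25(OH)2D3 against vehicle 19 of 12513 genes passed (0.152%; 7.27% at an unadjusted p under 0.05), and of 12503 genes 6 passed with osimertinib against vehicle (0.048%; 7.53%), 12 with both agents against osimertinib (0.096%; 4.16%), and 62 with both agents against vehicle (0.496%; 12.5%). The effect of 1,25(OH)2D3 in the presence of osimertinib was also set against its effect in the absence of osimertinib, and 0 genes passed (0%; 2.64%), or 11 with DESeq2. With the replicate letter as a block, 35 genes passed with osimertinib against vehicle (0.28%), and for both agents 33 passed against osimertinib (0.264%) and 461 against vehicle (3.69%), with 0 receptors among any of these. In the last of them MET and FGFR1 had an unadjusted p under 0.05 with the block.

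For AXL the intervals were narrow. It had 146 and 165 CPM in Samples 3b and 3c and 166, 145, and 163 CPM in Samples 5a, 5b, and 5c, among vehicle libraries of 142 to 174 CPM. The log2 fold change was 0.04 with osimertinib (95% interval -0.21 to 0.30) and 0.02 with both agents against vehicle (-0.24 to 0.28). It was -0.02 with both agents against osimertinib (-0.28 to 0.23) and 0.01 with 1,25(OH)2D3 alone (-0.55 to 0.56). A change larger than 0.30 on the log2 scale thus lay outside the intervals of the 3 comparisons with osimertinib or both agents, though not outside that of 1,25(OH)2D3 alone.

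MET had 200.2 and 177 CPM in Samples 3b and 3c and 442, 211, and 149 CPM with both agents, and each group overlapped the vehicle libraries. Its log2 fold change was -0.21 with 1,25(OH)2D3 (95% interval -1.01 to 0.59), 0.09 with osimertinib (-1.02 to 1.21), and 0.29 with both agents against vehicle (-0.83 to 1.40). With the replicate block the intervals were narrower. The log2 fold change was then 0.05 with osimertinib (-0.18 to 0.28), 0.20 with both agents against osimertinib (-0.03 to 0.43), and 0.25 with both agents against vehicle (0.02 to 0.48; unadjusted p = 0.0391, adjusted p = 0.217, edgeR). The spread followed the replicate letters. Samples 2a, 4a, and 5a had 350.1 to 442 CPM and the b and c libraries of the same groups had 131 to 211 CPM, a ratio of means of 2.42, and Sample 3a had 339 CPM. In H1975 the order was the other way, with Sample 1a the lowest. KIT and FGFR3 were also highest in the a library in 3 of these 3 groups, and what libraries of a letter share was not tested.

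PDGFRB had 13.96 and 10.4 CPM in Samples 3b and 3c, below each of the 3 vehicle libraries (15.04 to 29.3 CPM). KIT had 0.215 and 0.558 CPM there, also below each vehicle library, from 1 and 3 counts. The vehicle libraries had 3 to 13 KIT counts. Samples 2b and 3c thus tied at 3 counts and were separated by the scaling alone. PDGFRB and KIT were the only 2 receptors whose libraries did not overlap in CPM in that comparison, against 12.3% of all genes lower in this way. Neither passed (PDGFRB log2 fold change -0.79, 95% interval -1.82 to 0.25, adjusted p = 0.783; KIT -1.91, -4.38 to 0.57, adjusted p = 0.774; edgeR). With Sample 3a kept in, where PDGFRB had 47.6 CPM, its log2 fold change was 0.20, so its direction turned with that library, and with no other alternative. FGFR3 also turned with Sample 3a (0.07), as did MET (0.13), FGFR2 (0.33), and TYRO3 (0.34). MET and FGFR2 turned as well without Sample 2a (0.30 and 0.45) and with the block (0.02 and 0.45), and TYRO3 without Sample 3c (0.02), so their 1,25(OH)2D3 differences had no stable direction. With both agents PDGFRB had 26.1, 24.2, and 20.5 CPM, and the 1,25(OH)2D3 effect was higher by 0.72 on the log2 scale in the presence of osimertinib than in its absence (95% interval -0.21 to 1.65; adjusted p = 1, edgeR).

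FGFR1 had 40.2 and 50.6 CPM with 1,25(OH)2D3 and 27.5, 22.1, and 40.8 CPM with both agents. Its difference between both agents and vehicle was -0.51 (95% interval -1.05 to 0.03; adjusted p = 0.424, edgeR; 0.168 with the block), the nearest to the threshold of any receptor in the treatment comparisons. FGFR2 had 2.58 and 2.60 CPM with 1,25(OH)2D3 and 4.81, 4.00, and 8.02 CPM with both agents, and FGFR3 had 11.2 and 14.3 and then 23.1, 19.7, and 18.6 CPM. All 3 FGFR3 libraries with both agents lay above the vehicle libraries (12 to 18.4 CPM), 1 receptor against 8.08% of all genes, with a log2 fold change of 0.39 (95% interval -0.28 to 1.06; adjusted p = 0.664, edgeR). TYRO3 had 12.03 and 8.92 CPM with 1,25(OH)2D3 and 15.4, 16.2, and 8.73 CPM with both agents, around vehicle libraries of 10.3 to 12.9 CPM. With osimertinib all 3 TYRO3 libraries (13.1 to 18.2 CPM) lay above vehicle, 1 receptor against 5.96% of all genes, and the log2 fold change was 0.35 (95% interval -0.29 to 0.99; adjusted p = 0.876, edgeR).

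IGF1R was the most variable of the receptors with more than 100 counts in most libraries. It ranged from 0.819 CPM, on 4 counts, in Sample 4b to 89.1 CPM in Sample 5b and 114 CPM in Sample 3a, and the coefficient of variation within the osimertinib group was 113%. Its interval for both agents against osimertinib was -0.99 to 3.19 on the log2 scale. With Sample 3a kept in, its 1,25(OH)2D3 difference was 1.28 (unadjusted p = 0.0455, adjusted p = 0.647, edgeR). KIT had 3.21, 1.18, and 2.36 CPM with both agents, and PDGFRA had 0.802, 0.47, and 0.472 CPM, on 2 to 4 counts. The PDGFRA libraries with both agents all exceeded those with osimertinib (0 to 0.205 CPM, on 0 to 1 counts), 1 receptor against 3.82% of all genes, at counts too low for a comparison.

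**Figure D4:**
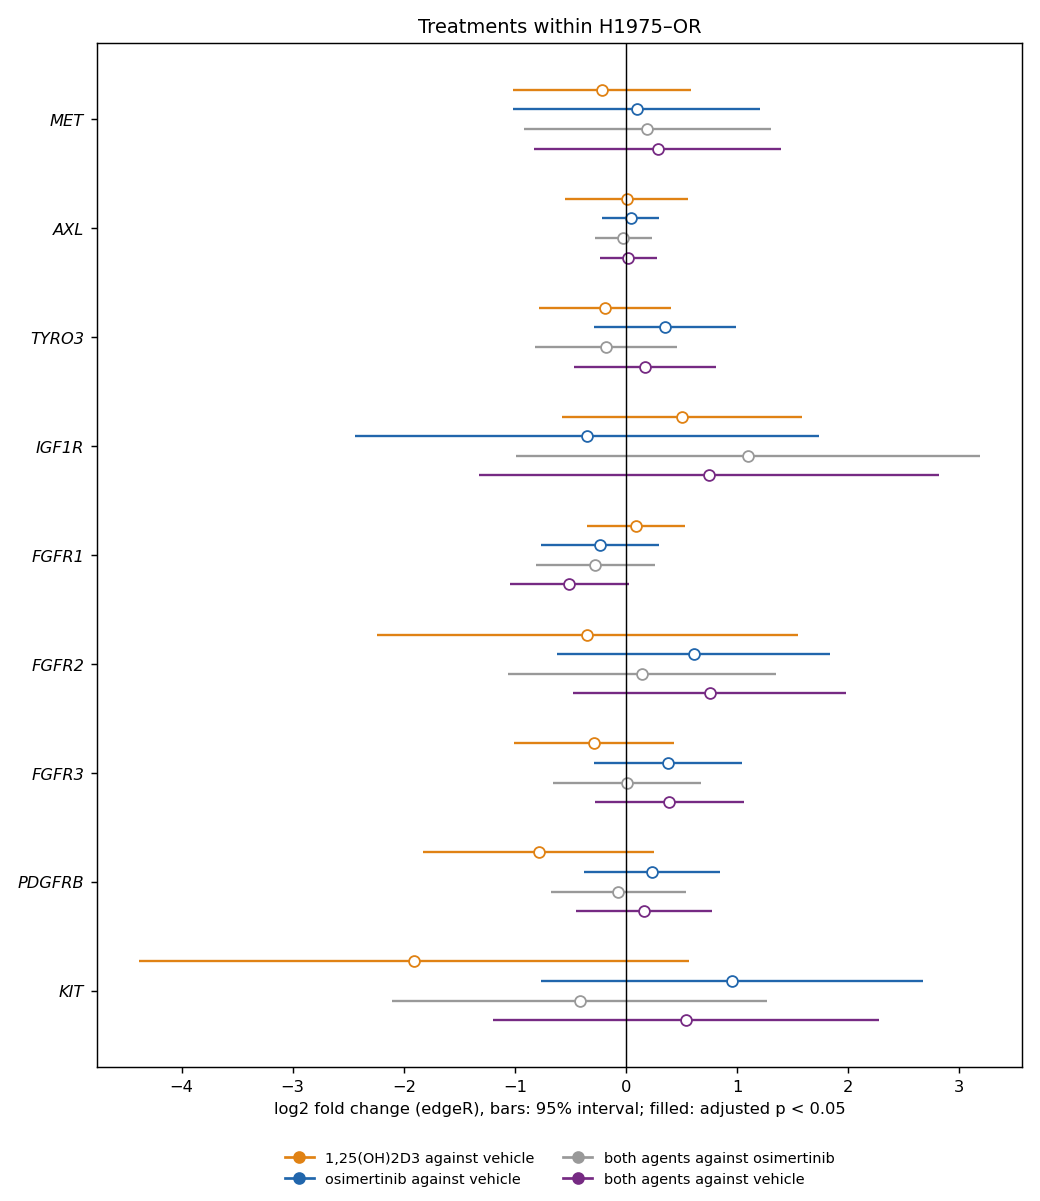
Treatment differences within H1975–OR cells for the 9 receptor kinases tested. The x axis gives the edgeR log2 fold change, bars span the 95% interval, colors mark the comparison, and all points are open because no adjusted p was under 0.05. The AXL intervals in the comparisons with osimertinib or both agents are the narrowest, at -0.21 to 0.30 for osimertinib against vehicle.

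Genes around these receptors were counted from 5 lists with 87 genes in all, of which 86 were in the table and 67 were tested between vehicle-treated H1975–OR and H1975. Of the 67, 9 were higher and 9 lower (26.9% of the lists). Over all genes 20.1% passed, 9.89% higher and 10.3% lower, and the counts of each list below stand beside these shares. Of the ligands, 2 of 10 tested were higher and 0 lower. FGF1, a ligand of all FGF receptors, rose from 2.55 ± 1.91 to 15.9 ± 5.10 CPM (n = 3 each; log2 fold change 2.65, SE 0.658, adjusted p = 0.0241, edgeR). PDGFD, a ligand of PDGFRB, rose from 5.35 ± 1.296 to 24.5 ± 6.72 CPM (2.21, SE 0.283, adjusted p = 0.00174).

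Among the proteins that bind or activate ligands, 2 were higher and 6 lower of 18 tested. ST14 (matriptase), a protease that activates hepatocyte growth factor, fell from 75.6 ± 35.7 to 2.07 ± 0.758 CPM (log2 fold change -5.15, adjusted p = 0.00048, edgeR). SPINT1 and SPINT2, inhibitors of such proteases, fell from 44.2 to 0.745 CPM and from 137 to 60.8 CPM. NRP1 and SDC1, co-receptors for several growth factors, fell by 1.00 and 1.99 on the log2 scale. IGFBP5 and IGFBP7, which bind insulin-like growth factors, rose from 2.56 to 84.7 CPM and from 7.36 to 57.2 CPM, while IGFBP3 fell from 105 to 45.3 CPM.

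Of the other receptor kinases, MERTK, the third member of the AXL and TYRO3 family, fell from 12.1 to 0.814 CPM (log2 fold change -3.84, SE 0.816, adjusted p = 0.0130, edgeR; 2 to 5 counts per H1975–OR library). MST1R, the closest relative of MET, fell from 19.1 to 4.42 CPM (-2.09, adjusted p = 0.00292), and INSR, the insulin receptor, rose from 48.7 to 80.1 CPM. Of the 16 adaptors and first effectors tested, PIK3R1, the regulatory subunit of PI3K, rose from 25.8 to 122 CPM, SOS2 rose, and CRKL fell. Of the 12 negative regulators and sheddases tested, LRIG1 and PTPRJ rose, to 41.4 and 162 CPM from 16.7 and 88.9 CPM, and 0 fell.

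In osimertinib-treated H1975–OR against H1975, 14 of 71 list genes tested were higher and 12 lower (36.6%, against 23.4% of all genes, 11.3% higher and 12% lower). Among them GAS6, the ligand of AXL and TYRO3, rose from 8.52 ± 2.44 to 24.5 ± 5.63 CPM (log2 fold change 1.52, SE 0.463, adjusted p = 0.0315, edgeR). IGF2, a ligand of IGF1R, had no counts in the 3 H1975 libraries and 3 to 13 counts with osimertinib. Its mean with osimertinib (1.83 CPM) was 3.16-fold the limit of 3 counts per library in H1975 (0.578 CPM). This ratio is approximate, because the limit was scaled without the TMM factor and the mean with it. The lowest osimertinib library (0.571 CPM) held 3 counts, the same number of counts as the limit. FRS2, the docking protein of the FGF receptors, rose from 36.9 to 52.0 CPM, and IRS1, the docking protein of IGF1R, fell from 79.8 to 30.0 CPM. PDGFA, a ligand of PDGFRA, fell from 37.6 to 23.0 CPM. In the treatment comparisons 0 list genes passed with edgeR without the replicate block. At an unadjusted p under 0.05 there were 10 of 67 with 1,25(OH)2D3 (7.27% of all genes). Of 68 there were 5 with osimertinib (7.53%), 3 with both agents against osimertinib (4.16%), 20 with both agents against vehicle (12.5%), and 2 for the difference of effects (2.64%). With DESeq2, at an adjusted p under 0.05, these were 3, 0, 1, 5, and 0, against 124, 117, 66, 364, and 11 of all genes, and IGFBP3 was among them in each of the 3 comparisons with any. With the replicate block in edgeR, 1 list gene (IGFBP3) passed for both agents against osimertinib, beside 33 of all genes. For both agents against vehicle 7 passed (IGF2R, IGFBP3, IGFBP5, LRP1, PLCG1, PROS1, and SHC1), beside 461 of all genes. In the other treatment comparisons 0 list genes passed with the block.

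**Figure D5:**
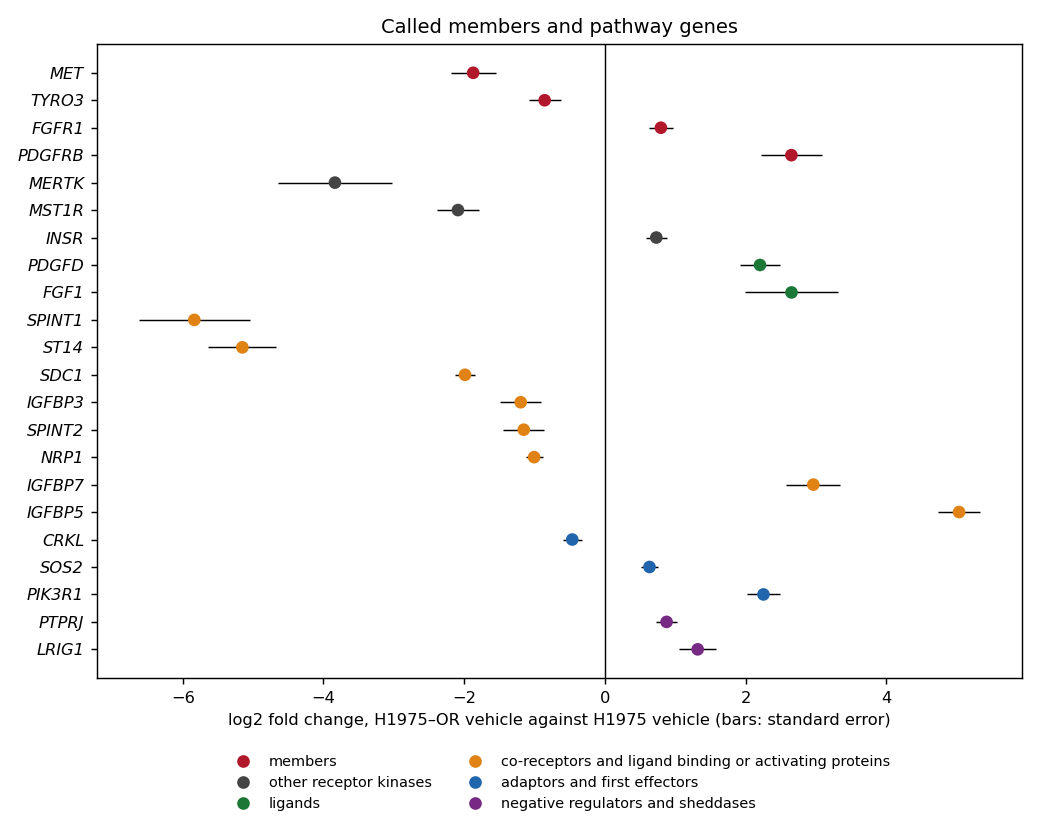
Receptor kinases and pathway genes with an adjusted p under 0.05 between vehicle-treated H1975–OR and H1975. The x axis gives the edgeR log2 fold change, bars are its standard error, and colors mark the list. Ligands FGF1 and PDGFD and the receptors FGFR1 and PDGFRB lie to the right, and MET, ST14, SPINT1, and SPINT2 lie to the left.

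For each receptor that passed a test, the transcripts with the most similar pattern were found by Pearson correlation of log2(CPM + 2) over 14 libraries, among 12819 genes. These points share conditions and replicate letters, so the values are descriptions. MET was closest to KIAA1462 (r = 0.983) and SOAT1 (0.980). KIAA1462 averaged 78.0 CPM in H1975 and 3.94 to 9.22 CPM in the H1975–OR groups. PDGFRB was closest to SIK2 (0.986) and CTIF (0.982), and FGFR1 to TCEAL4 (0.959) and PRDX2 (0.954). TCEAL4 averaged 105 CPM in H1975, 181 CPM in vehicle-treated H1975–OR, and 134 CPM with both agents. FGFR2 was closest to MSRB3 (0.941) and SECTM1 (0.935), FGFR3 to SUGP2 (0.934) and RRAGD (0.911), and TYRO3 to SIPA1L1 (0.918) and SGO1 (0.914). RRAGD averaged 3.69 CPM in H1975, 17.8 CPM with vehicle, and 52.1 and 66.4 CPM with osimertinib and both agents.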

How the data were processed

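RNA of 15 libraries of cultured cells was sequenced as stranded total RNA with 75-cycle paired ends. The deposited values are estimated counts per gene, which the authors made with Kallisto and tximport. The tximport settings, which include any scaling for depth or length, are not given in the sources used here. The submitters' processing notes name GRCh38, CASAVA 1.8.2, STAR 2.5.2b, and kallisto 0.43.0. The transcript annotation is not given in the sources used here.

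Counts were rounded and tested with edgeR 4.0.16 in R 4.3.3 (TMM, filterByExpr by group with a minimum count of 10 and total of 15, quasi-likelihood test, Benjamini-Hochberg adjustment over all genes, threshold 0.05), checked on simulated data. H1975–OR vehicle against H1975 and 1,25(OH)2D3 against vehicle used 1 fit of 8 libraries, other treatments 1 fit of 11 H1975–OR libraries, and osimertinib-treated H1975–OR against H1975 1 fit of 14. Intervals are 95% and unadjusted. Other settings tried were DESeq2 1.42.0, scaling by RLE, a stricter count filter or none, a fit with Sample 3a, with the replicate block, with all 14 libraries, or with only the compared groups, and each library left out. Same-letter libraries deviated together over genes in osimertinib against vehicle (correlations 0.12 to 0.31), both agents against osimertinib (0.26 to 0.46), and both agents against vehicle (0.12 to 0.34), so the letters were taken to pair these from the data, not from the labels. The genes named are all 10 receptors, list genes with an adjusted p under 0.05, and the closest transcripts by correlation. The receptors and lists were chosen with earlier results of these data known.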

Additional observations from a re-analysis of the deposited data

Results flagged for a closer look

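Sample 3a, treated with 1,25(OH)2D3 and left out of the reported comparisons but not of the alternatives with it kept in, lay above the highest of the 3 vehicle-treated H1975–OR libraries for 8 of the 10 receptors, which 33.7% of all genes tested also did. AXL stood at 247 CPM in it (highest vehicle library 174 CPM), TYRO3 at 23.9 CPM (12.9 CPM), and IGF1R at 114 CPM (33.5 CPM). FGFR1 stood at 56.6 CPM (48.0 CPM), FGFR2 at 7.16 CPM (6.14 CPM), and FGFR3 at 23.2 CPM (18.4 CPM). PDGFRB stood at 47.6 CPM (29.3 CPM), and PDGFRA at 0.954 CPM, on 6 counts (0.578 CPM).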

How the results depend on the processing

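The number of receptors that passed was within 1.5 times that reported in 98 of 100 alternatives. Most of these alternatives were of the treatment comparisons, where 0 receptors passed in the reported fit and in every alternative. Calls that could be lost were held only by the comparisons with H1975, with 14 (vehicle) and 13 (osimertinib) alternatives. For vehicle-treated H1975–OR against H1975 the number that passed was 4, and with 1 library left out it was between 2 and 4, the lowest without Sample 2b (MET and PDGFRB). For osimertinib-treated H1975–OR against H1975 it was 4, between 2 and 5 with 1 library left out, and lowest without Sample 1c (FGFR3 and PDGFRB). Of 878 single receptor values, 859 kept their side of the threshold, 13 lost and 6 gained a call, and 0 called values changed sign. All losses and gains were in the comparisons with H1975. With the replicate block, 3 receptors passed in the first comparison (TYRO3 lost, adjusted p = 0.0568, edgeR) and 5 in the second (AXL gained, 0.0326). The letters paired neither of these (same-letter correlations -0.03 to 0.02 and -0.12 to 0.08), and in neither did every library correlate best with its own letter. The block changed no other call on a receptor.

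Counts over all genes moved more. Between vehicle-treated H1975–OR and H1975 they were 2521, but 1636 with Sample 3a kept in and 1426, 1640, 1441, and 1672 without Samples 1b, 1c, 2b, and 2c. For osimertinib-treated H1975–OR against H1975 they were 2998, but 1932, 1849, and 1977 without Samples 1b, 4b, and 4c. For 1,25(OH)2D3 against vehicle 19 became 124 with DESeq2, 32 without a filter, 29 with 10 counts in every library or with all 14 libraries, 9 with the block or with only the compared groups, and 5 to 18 with 1 library left out. For osimertinib against vehicle 6 became 117 with DESeq2, 35 with the block, 12 with all 14 libraries, 2 with only the compared groups, and 1 to 29 with 1 library left out. For both agents against osimertinib 12 became 66 with DESeq2, 33 with the block, 5 with Sample 3a, 2 with only the compared groups, and 3 to 9 with 1 library left out. For both agents against vehicle 62 became 364 with DESeq2, 461 with the block, 25 with Sample 3a, 98 with all 14 libraries, 8 with only the compared groups, and 4 to 110 with 1 library left out. The cause was not tested. KIT, FGFR2, and PDGFRA had at most 34 counts in any of the 14 libraries, so their values carry more counting error than those of the other receptors.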
